A study of Mus musculus with 5 samples.

Results

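Translation initiation factors, elongation factors and aminoacyl-tRNA synthetases were followed in the livers of mice carrying the eyeless allele of Pitx3. The members were taken by gene symbol from the platform's annotation. They are all probes named Eif or Eef followed by a digit, and all probes whose symbol has the form of an aminoacyl-tRNA synthetase. That gave 97 of the 14030 probes with 1 gene symbol, for 66 of 9930 named genes. They comprised 36 initiation factor genes on 51 probes, 8 elongation factor genes (with 2 methyltransferases of eEF1A) on 15 probes and 22 synthetase genes on 31 probes. No probe was named for Eif2s1 or Eif4ebp2 in the annotation used here.

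The samples were 5 livers of male mice, 17 weeks old and labelled Pitx3eyl-/-, a spontaneous mutant line of the homeobox gene Pitx3. Each array held the RNA of 1 mutant animal and an RNA pool of wild-type mice, 4 per the sample labels and 6 per the labelling protocol. The mutant was in Cy5 on replicates 1, 2 and 4 and in Cy3 on replicates 3 and 5. The pool is 1 control sample shared by every array, so the spread between wild-type animals is in no error given here. The values are log2 ratios, and the likely direction, used throughout, is mutant over pool.

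In translation initiation, eIF2 brings the initiator tRNA to the small ribosomal subunit, eIF3 holds the complex together, and the eIF4 proteins bind the mRNA cap and unwind the leader. eIF2B recharges eIF2 with GTP, and kinases that phosphorylate eIF2 alpha block this step under stress. The elongation factors eEF1A and eEF2 deliver aminoacyl-tRNAs and move the ribosome along the mRNA. The synthetases load each tRNA with its amino acid, with separate enzymes in cytosol and mitochondria for most amino acids. The liver spends much of this capacity on secreted plasma proteins, and amino acid shortage is known to induce cytosolic synthetase genes through the transcription factor ATF4.

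Promoter sequences (RefSeq, GRCm38.p6, 250 bases before to 50 after each start site) were matched for 48 of the 66 genes, with 57 promoters. The string TTGCATCA, whose complement TGATGCAA is known as a composite site of C/EBP and ATF factors, lay in 4 of 16 synthetase promoters (25% on either strand) and in 0 of 41 promoters of the factors. It lay in 0.895% of all 32851 promoters and in 0.865% of those of protein-coding genes. With the looser TGATGNAA, which contains TGATGCAA, Gars joined these genes, giving 31.2% of synthetase promoters against 3.97% of all. The windows of 4 of these genes are shown because this site is known from genes of the amino acid response. The matched letters are in capitals, and each window reads 5′ to 3′ on the gene's strand. Of these 4, Yars and Gars had values on 5 arrays, and Iars and Tars on at most 2 per probe.
Gars, chr6:55037960-55037989, plus strand: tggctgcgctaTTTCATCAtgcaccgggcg
Iars, chr13:49682126-49682155, plus strand: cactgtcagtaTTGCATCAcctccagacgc
Tars, chr15:11399655-11399684, minus strand: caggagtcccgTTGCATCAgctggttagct
Yars, chr4:129189895-129189924, plus strand: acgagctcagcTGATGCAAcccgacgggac

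The E-box CACGTG, a site of MYC and other helix-loop-helix factors, lay in promoters of 12 of the 48 genes (25%) against 8.09% of all 27025 genes in the promoter table and 8.91% of protein-coding genes. It is its own complement, so both strands match together. The 12 genes included Eef2, Eif3k and Eif5a, each with 1 probe at a limma unadjusted p under 0.05 below, and Eif4e. No member was called, and the other tested probes of Eef2, Eif3k and Eif5a had coefficients of 0.06, 0.30 and -0.17. Also among the 12 were Eif4a1, Eif1b and Eef1aknmt, whose mutant coefficients were -0.11, -0.78 and 0.28, and genes with no tested probe, such as Iars. Windows upstream of the start site follow with the E-box in capitals, chosen for those first 4 genes after their values were seen.
Eef2, chr10:81176561-81176620, plus strand: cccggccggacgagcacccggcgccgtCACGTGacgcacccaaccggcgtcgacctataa
Eif3k, chr7:28981900-28981959, minus strand: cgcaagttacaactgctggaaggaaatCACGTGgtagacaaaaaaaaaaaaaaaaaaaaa
Eif4e, chr3:138527177-138527236, plus strand: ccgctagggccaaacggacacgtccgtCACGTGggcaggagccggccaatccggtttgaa
Eif5a, chr11:69921428-69921487, minus strand: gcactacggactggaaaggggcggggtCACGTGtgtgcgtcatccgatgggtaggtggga

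A further 4 strings were searched. TGATGCAAT lay in 2 of 57 member promoters, GCCGCCATG in 0, CTCTTTCC in 4 and TTTCTCTT in 1. The corresponding shares of all promoters were 0.192%, 0.630%, 3.12% and 3.52%. These matches describe letters in a window, and no binding was measured.

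Each array gave measured ratios for 13576 to 15892 of 20355 probes. Between array pairs, Pearson r over all probes ran from -0.26 to 0.11 across 10 pairs. The array medians over all probes lay between -0.19 and 0.23. Pitx3 itself had 0 named probes, which left the mutated gene unchecked. A ratio holds no level, so the liver identity of the RNA could not be checked by the level of markers. Of 10 hepatocyte markers, 7 had probes, and albumin, Alb, had a mutant coefficient of -0.13 ± 0.26 (SE, 5 arrays). The list was not uniform: of its 6 tested probes, 2 lay above and 4 below 0. The lowest, Apoa1, stood at -1.55 ± 0.87, with arrays from -3.75 to 1.10.

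No translation factor or synthetase passed the test. limma (intercept with a dye term, fitted over 11300 probes with at least 4 values in both dye orientations) called 0 of 56 tested member probes, as it called 0% of all tested probes, and the members' lowest adjusted p was 0.999. At an unadjusted p under 0.05 stood 3 member probes (5.36%), all with positive coefficients, beside 4.16% of all tested probes. These 3 belonged to Eef2, Eif3k and Eif5a, and each had values on 4 arrays. Among the tested member probes, 27 lay above and 29 below 0, with a median coefficient of -0.01, where the median of all probes was 0.04. With values on all 5 arrays there were 33 member probes, and 0 of them had 1 sign on all arrays, beside 5.99% of all such probes. With replicates 3 and 5 turned, 2 had 1 sign, Eif2b3 below and Vars2 above 0, beside 8.03% of all such probes. The 56 tested probes stood for 47 genes, and 19 member genes had no tested probe.

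**Figure D1:**
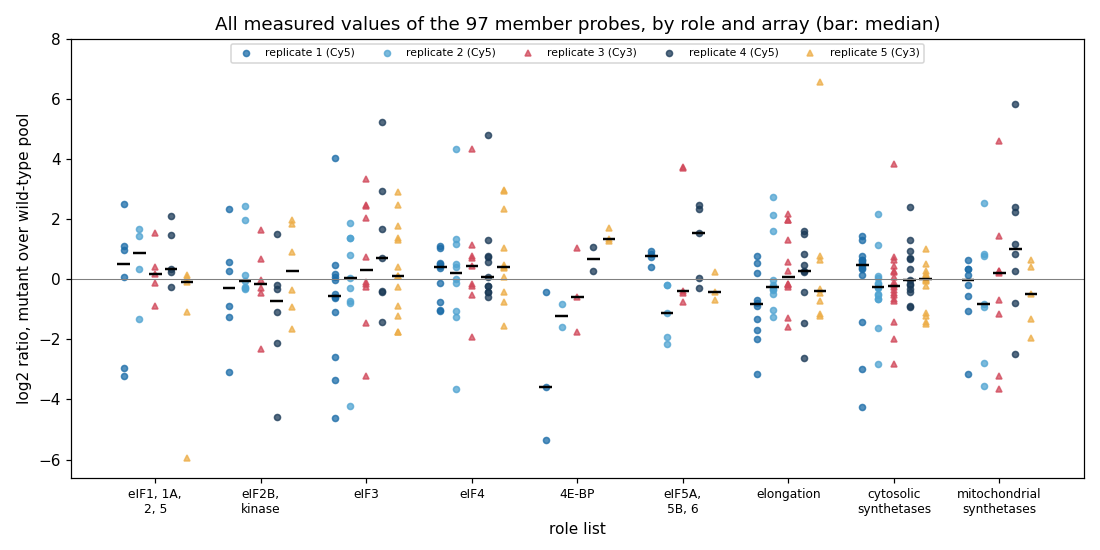
Log2 ratios (vertical axis, mutant over wild-type pool) of all measured values of the 97 member probes, grouped by role (horizontal axis) and coloured by array, with circles for the mutant in Cy5, triangles for Cy3 and black bars for the median of an array. Points of the larger lists lie on both sides of 0 on every array; the highest value, 6.56, belongs to Eef2 and the lowest, -5.94, to Eif5, both on replicate 5.

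Precision differed with the number of arrays. The 95% interval from limma lay within 2-fold on either side of no change for 16 of the 33 probes with 5 values (48.5%, against 36.0% of all probes with 5 values) and for 0 of the 23 probes with 4 values. The median SE was 0.31 with 5 values and 0.56 with 4.

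Of the factors that select the start codon and carry the initiator tRNA, 4 probes were tested, 1 above and 3 below 0. Eif2a, a factor that can deliver tRNA without eIF2, had log2 ratios of 0.99, 0.32, -0.11, 0.32 and 0.14 on replicates 1 to 5. Its coefficient was 0.28 ± 0.28 (SE, 5 arrays), with only replicate 3 below 0. Eif1b, a paralog of the start codon factor eIF1, had -3.24, -1.32, 1.53 and -0.08 on replicates 1, 2, 3 and 5. The coefficient was -0.78 ± 0.53, and the values were lowest on both arrays with the mutant in Cy5. Eif5, which triggers GTP hydrolysis on eIF2, had 1.09, -0.89, 0.25 and -1.08 on replicates 1, 3, 4 and 5, the Cy5 arrays above and the Cy3 arrays below 0. Eif2d stood at -0.74 ± 0.56, with -2.94 on replicate 1 and -0.25 to 0.16 on the others. Eif1a, Eif1ax and Eif2s3x had values on at most 3 arrays and were not tested.

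All 5 subunits of eIF2B were measured, 4 of the 6 tested probes of this list lying below 0. Eif2b2 had 0.29, -0.30, -0.29, -0.33 and -0.92 on replicates 1 to 5, a coefficient of -0.36 ± 0.29 with 1 array above 0. Eif2b4 stayed between -0.46 and 0.56 on all 5 arrays (coefficient -0.15 ± 0.28). The other subunits spread widely. Eif2b3 ran from -3.08 on replicate 1 to 1.96 on replicate 5, with all Cy5 arrays below 0 and both Cy3 arrays above it. Eif2b5, the catalytic subunit, had 2.34 and 1.99 on replicates 1 and 2 but -4.60 and -1.67 on replicates 4 and 5, and Eif2b1 lay between -2.12 and 0.89. The eIF2 alpha kinase PKR, Eif2ak2, had -0.90, 2.44, -2.32, 1.52 and 1.84 (coefficient 0.39 ± 0.80), below 0 on replicates 1 and 3. Its second probe had 0.68 on replicate 3 and -0.34 on replicate 2, the latter being the most frequent value of that array. Both differed in sign from the first probe.

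Within eIF3, 3 of the 8 tested probes lay above and 5 below 0. The tightest were Eif3h, with log2 ratios of 0.17, -0.31, -0.16, -0.43 and 0.11 on replicates 1 to 5, and Eif3e, with 0.48, 0.06, -0.10, -0.38 and 0.10. Their coefficients were -0.11 ± 0.27 and 0.03 ± 0.28, and both stayed within 0.5 of 0 on every array. Eif3i was lowest on replicate 4, at -1.41, with a coefficient of -0.47 ± 0.33 and 1 array above 0.
Eif3c, a core subunit, had -4.63 and -4.24 with the mutant in Cy5 (replicates 1 and 2) and 3.33 and 2.48 in Cy3 (replicates 3 and 5). Its mutant coefficient was -0.77 ± 0.35 and its dye coefficient -3.67 ± 0.35. Of the 2 probes of Eif3k, probe 8331 had 4.02, 0.73, 5.22 and -1.75 on replicates 1, 3, 4 and 5, with a mutant coefficient of 2.05 ± 0.56 (limma unadjusted p 0.0199, adjusted 0.999). The second, probe 6956, had -3.36, -0.78, 2.45 and 2.91 on replicates 1, 2, 3 and 5 and a coefficient of 0.30 ± 0.55. On replicates 1 and 5 these values of the same gene lay on opposite sides of 0, and of the 3 arrays that measured both, 1 had the same sign. Eif3a, Eif3b, Eif3f and Eif3l were measured on at most 3 arrays per probe.

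The cap-binding and helicase factors had 4 tested probes above and 3 below 0. Eif4e, the cap-binding protein, had 1.03, -1.24, -0.44 and 2.98 on replicates 1, 2, 4 and 5 for probe 9144, whose coefficient of 1.38 ± 0.58 rests on 1 array with the mutant in Cy3. Its other 3 probes had 2 or 3 values each, between -3.66 and 4.32, with signs that differed on replicates 1, 2 and 4. The competing cap binder Eif4e2 had 0.52, 0.00, -0.15, 0.07 and -0.76 (coefficient -0.13 ± 0.28).
The helicase paralogs Eif4a1 and Eif4a2 stood at -0.11 ± 0.36 and -0.07 ± 0.31. Arrays ran from -1.05 to 0.71 for Eif4a1 and from -0.60 to 0.44 for Eif4a2. Both were above 0 on replicate 1 and below on replicate 4, and they had opposite signs on replicates 2, 3 and 5. Whether the cDNA probes of such close paralogs tell their transcripts apart was not tested. Of the scaffold gene Eif4g3, probe 11352 had 0.52, 0.44, 1.29 and 2.94 on replicates 2 to 5. As the ratios are read here it was 1 of 23 member probes with 4 values to have 1 sign, beside 10.5% of all such probes. With the swapped arrays turned it lost this, and 4 others had 1 sign (Eif2d, Eif3c, Eif3k probe 6956 and Eif5), beside 16.3% of all. Its coefficient was 1.30 ± 0.54, while the other tested probes of the gene had 0.34 ± 0.42 and 0.12 ± 0.30.

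The 4E-BPs sequester eIF4E when mTOR is inactive, and all 3 tested probes had coefficients below 0. Eif4ebp3 had -3.60, -1.60, -1.75, 0.27 and 1.34 on replicates 1 to 5, a coefficient of -0.92 ± 0.74 that was -0.15 without replicate 3. Probe 15111 of Eif4ebp1 had -0.42, -0.83, -0.58 and 1.70 on replicates 1, 2, 3 and 5 and a coefficient of -0.03 ± 0.50. Probe 7572 of the same gene had -5.35, 1.03, 1.07 and 1.26 on replicates 1, 3, 4 and 5 and a coefficient of -0.49 ± 1.14. Without replicate 1 that probe's coefficient was 1.11, so its sign rests on that array. For the 4E-BPs as a list, replicate 5 was above 0 on every probe and replicate 1 below.

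eIF5A, which relieves stalled ribosomes, was measured by 2 probes with coefficients of opposite sign. Probe 15881 had 1 of the 6 smallest SDs among members with 5 values, with 0.41, -0.18, -0.46, 0.03 and -0.41 on replicates 1 to 5 and a coefficient of -0.17 ± 0.27. Probe 8554 had 0.74, -1.11, 3.71 and 2.46 on replicates 1 to 4, a coefficient of 2.20 ± 0.79 (limma unadjusted p 0.0466, adjusted 0.999) that rests on 1 Cy3 array. On replicate 3 the probes differed by more than 4 log2 units. Eif6, which keeps the large ribosomal subunit free, had coefficients of -0.06 ± 0.35 and -0.24 ± 0.61 on its 2 probes. Both probes were positive on replicate 1 and negative on replicates 2 and 3, and they had opposite signs on replicates 4 and 5.

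The elongation factor list had 6 tested probes above and 2 below 0. Those above included the eEF1A methyltransferases Eef1akmt1 (0.37 ± 1.20) and Eef1aknmt (0.28 ± 0.56). Eef1a1, which encodes the main eEF1A of liver, had -0.68, -0.27, -0.14 and 1.52 on replicates 1 to 4 and a coefficient of 0.02 ± 0.58. Eef1a2, the paralog known from muscle and neurons, had -0.79, -0.48, 0.27, 0.27 and 0.77 on replicates 1 to 5 (coefficient 0.09 ± 0.30). Both lay below 0 on replicates 1 and 2 and above on replicate 4. A second probe of Eef1a2, not tested, had -0.19, -1.28 and -0.33 on replicates 2, 3 and 5. It differed in sign from the first on replicates 3 and 5. Eef1g and Eef1b2 belong to the complex that recharges eEF1A. Eef1g had -0.45 to -0.27 on replicates 2 to 5 and 0.76 on replicate 1 (coefficient -0.18 ± 0.32). Eef1b2 had -0.89, -0.19, -1.46 and 0.63 on replicates 1, 3, 4 and 5 (coefficient -0.48 ± 0.35).
Eef2, the translocase, held the lowest unadjusted p of all members. Probe 7882 had 0.54, -1.02, 0.46 and 6.56 on replicates 1, 2, 4 and 5, and its coefficient of 3.28 ± 0.50 (limma unadjusted p 0.00224, adjusted 0.999) rests on replicate 5, its only array in Cy3. A second tested probe of Eef2 had -0.02, 0.57, 0.84 and -1.16 on replicates 2 to 5, a coefficient of 0.06 ± 0.45, and was negative on that same array. Without replicate 5 probe 7882 left the test.

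Of the cytosolic synthetases, 7 of 11 tested probes lay above 0 and the median was 0.05. Within 0.5 of 0 lay 10 of these 11 coefficients (90.9%), beside 65.0% over all tested probes. The share was 78.6% over all members and 87.5% in the elongation factor list. Values on all 5 arrays were held by 9 of the 11, against 6364 of all 11300 tested probes. The 9 probes of the list with 2 to 4 values had a median SD of 1.07, beside 0.47 for those with 5. Nars had 0.37, 0.12, -0.27, -0.20 and 0.01 on replicates 1 to 5 and the smallest SD of all members, 0.26. Yars had 0.50, 0.04, -0.08, -0.43 and -0.02, and Qars 0.34, -0.26, 0.43, 0.34 and -0.23. Their coefficients were -0.02 ± 0.27, -0.01 ± 0.28 and 0.12 ± 0.29, and the 95% intervals reached from -0.70 to 0.66, from -0.73 to 0.71 and from -0.61 to 0.84. Rars had 0.65, -0.15, 0.07, 0.68 and 0.51, the largest positive coefficient of the list at 0.34 ± 0.29, with 4 arrays above 0.
Gars stood at 0.29 ± 0.35, Hars at 0.17 ± 0.39, Vars at 0.08 ± 0.40, Cars at 0.01 ± 0.31 and Wars at -0.04 ± 0.30. Hars and Vars were highest on replicate 1, at 1.44 and 1.30, and Gars on replicate 4 at 1.32. The exception was Mars1, with -4.25, 2.17, -0.36 and -1.50 on replicates 1, 2, 3 and 5 (coefficient -0.98 ± 1.16), whose coefficient was 0.62 without replicate 1. Mars1, Qars and Rars, with Eprs at 0.05 ± 0.47, encode enzymes of the multisynthetase complex, and 3 of these 4 coefficients were positive.

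The mitochondrial synthetases were measured on fewer genes and varied more: 5 probes of 3 genes were tested, 3 above and 2 below 0. Vars2 had 0.35, 0.78, -1.15, 1.18 and -1.94 on replicates 1 to 5, above 0 on all Cy5 arrays and below on both Cy3 arrays (coefficient -0.39 ± 0.30). Mars2 lay between -0.81 and 2.42, highest on replicate 4 (coefficient 0.31 ± 0.53). The 3 tested probes of Iars2 had coefficients of 0.23 ± 0.36, -0.06 ± 0.57 and 0.58 ± 2.13. On replicate 4 these probes read 0.83, -2.50 and 5.82. Fars2, Sars2 and Tars2 had at most 3 values each.

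**Figure D2:**
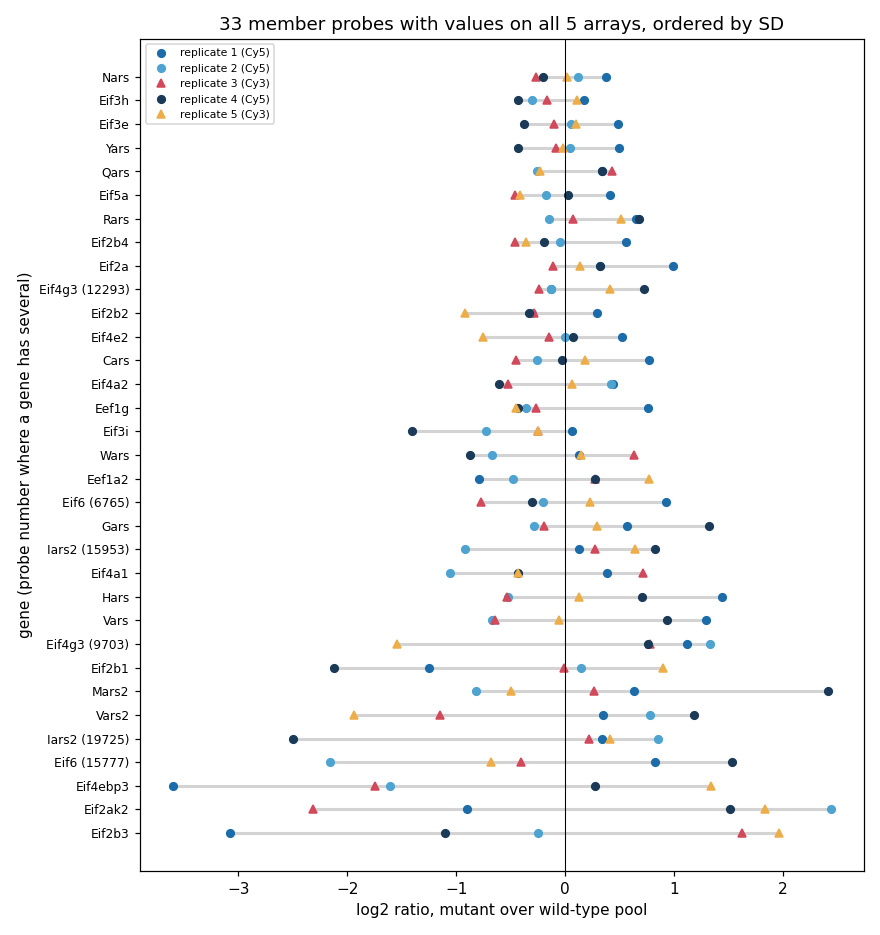
The 33 member probes with values on all 5 arrays, ordered from the smallest SD at the top to the largest at the bottom; the horizontal axis is the log2 ratio of mutant over wild-type pool, each point is an array (circles Cy5, triangles Cy3) and the grey line spans the 5 values. All 33 lines cross 0, and the SD runs from 0.26 for Nars to 2.07 for Eif2b3.

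Over these 33 probes, the median SD between arrays was 0.63, with animal, dye orientation and array together in it. It was 0.71 over all 6364 probes with 5 values and 0.67 over those with a gene name. An SD under 0.5 was found for 13 of the 33 members (39.4%, against 32.6% of all), and an SD over 1 for 9 (27.3% against 34.7%). The 9 probes over 1 belonged to Eif2b1, Eif2b3, Eif2ak2, Eif4ebp3, Eif4g3, Eif6 and the mitochondrial Vars2, Mars2 and Iars2. Of the 9 cytosolic synthetase probes none (0) was over 1 and 5 were under 0.5, and of the 4 mitochondrial ones 3 were over 1. With 4 values the order changed, members having a median SD of 2.01 and all probes of 1.42. Some values equal the ratio of a pair of small integers (at most 20, within 0.0011 log2 units of the array's constant plus that ratio). Their share was 20.6% among members with 5 values and 30.4% with 4, beside 19.7% and 27.5% of all probes. A value equal to the constant itself is a ratio of 1 to 1, so its sign is that of the array's offset. Such values included Eif2ak2 on replicate 2 (second probe, -0.34), Eef1a1 on replicate 3 (-0.14), Eef2 probe 7882 on replicate 4 (0.46) and Eif1b on replicate 5 (-0.08).

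On replicate 1, members with 5 values lay mostly above 0: 27 of 33 were positive (81.8%), with a median of 0.41, while 57.2% of all such probes were positive, with a median of 0.11. All 13 synthetase probes with 5 values were positive on that array, with a median of 0.50, as were 13 of 18 initiation factor probes. Replicate 1 held the highest of the 5 values for 16 of the 33 members (48.5%), where it did so for 26.3% of all such probes. On replicates 2 and 3, by contrast, 23 of the 33 members were negative on each, with medians of -0.25 and -0.19 against -0.004 and -0.05 over all probes. On replicate 4 the median of initiation factors was -0.25 and that of cytosolic synthetases 0.34. Replicate 5 lay near the array as a whole, with a median of 0.10 in both. Over all measured values, members on replicate 1 again stood above the array as a whole. The shift on replicate 3 was smaller, and that on replicate 4 turned. On replicate 1, 39 of 73 members lay above 0 (53.4%, median 0.12) beside 42.1% of all probes (median -0.19). Above 0 were 15 of 22 synthetase and 21 of 41 initiation factor probes, but only 3 of 10 elongation factor probes (median -0.84). Among the initiation factors, 4 of 12 eIF3 probes lay above 0 (median -0.545). On replicate 2, 44 of 70 members lay below 0 (median -0.23, beside -0.035 over all probes). On replicate 3, 36 members lay above and 41 below 0 (median -0.10). On replicate 4 the medians were 0.26 for 36 initiation factor probes and -0.03 for 13 cytosolic synthetase probes, the reverse order. If the swapped arrays run the other way, every sign on replicates 3 and 5 turns. These are single animals and single hybridisations, so animal, dye and array cannot be told apart in such a shift.

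**Figure D3:**
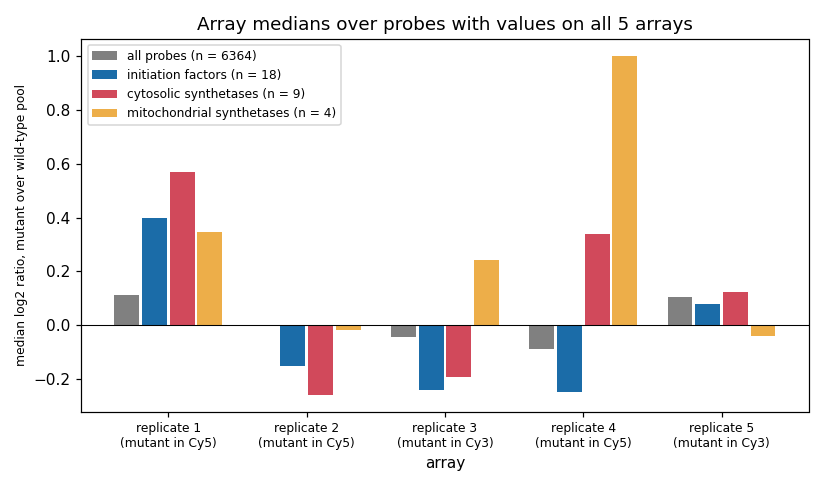
Median log2 ratio (vertical axis, mutant over wild-type pool) on each array (horizontal axis, with the dye of the mutant) over probes with values on all 5 arrays, for all 6364 probes, 18 initiation factor, 9 cytosolic and 4 mitochondrial synthetase probes. On replicate 1 the 3 member groups lie above the 0.11 of all probes, and on replicate 2 below 0.

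The dye coefficient, the Cy5 mean minus the Cy3 mean divided by 2, was also called for 0 of 56 member probes and 0% of all probes (limma lowest adjusted p 0.429). At an unadjusted p under 0.05 there were 8 member probes (14.3%), beside 7.38% of all tested probes. Coefficients below 0 belonged to Eif3c, Eef2 probe 7882 (-3.28 ± 0.50), Eif3k probe 6956 (-2.37 ± 0.55), Eif2b3 (-1.64 ± 0.48), Eif4e (-1.60 ± 0.58) and Eif1b (-1.50 ± 0.53). Above 0 stood Eif3k probe 8331 at 2.57 ± 0.56 and Vars2 at 1.16 ± 0.30. For 41 of 56 member probes (and 5973 of all 11300) the dye coefficient exceeded the mutant one in size. If the 2 dye-swapped arrays run the other way than read here, these 2 coefficients change places, and Eif3c would have a mutant coefficient of -3.67 (limma adjusted p 0.429). Even then 0 member probes were called, and their lowest adjusted p was 0.429.

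**Figure D4:**
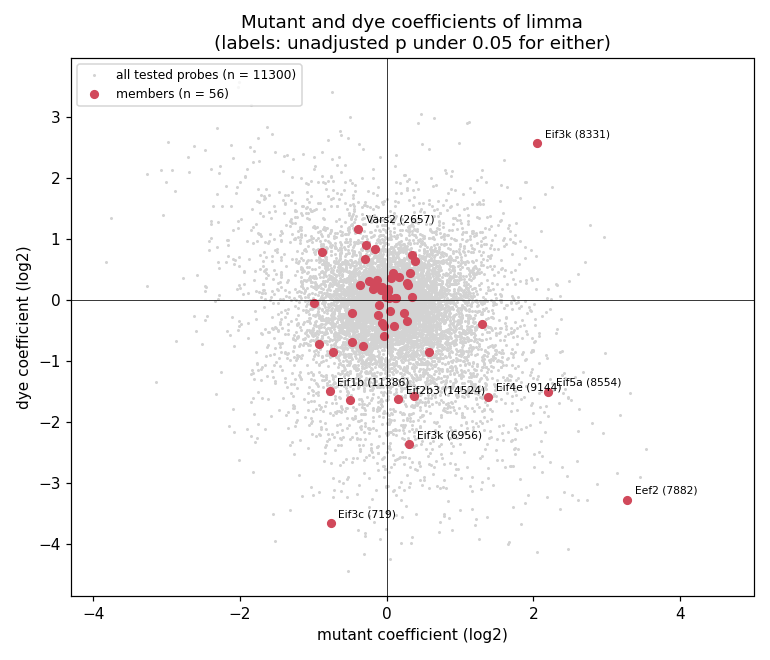
Mutant coefficient (horizontal axis) against dye coefficient (vertical axis), both in log2 units from limma, for all 11300 tested probes in grey and the 56 member probes in red, with labels for members at an unadjusted p under 0.05 in either. Most members lie near the centre; Eef2 probe 7882 lies at 3.28 and -3.28, and Eif3c at -0.77 and -3.67.

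Of the member genes, 18 had several probes and 7 had at least 2 that were tested. Among the 11 pairs of tested probes of 1 gene, the coefficients had the same sign in 8, where 51.6% of 1777 such pairs over all named genes did. With the swapped arrays turned, it was 6 of 11, beside 52.3%. Within arrays, 68 of 120 pairs of values (56.7%) had the same sign, and the median gap between them was 1.35 log2 units. The widest gap on 1 array was 7.72 log2 units for Eef2, 7.38 for Eif3k, 4.17 for Eif5a and 8.32 for Iars2.

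**Figure D5:**
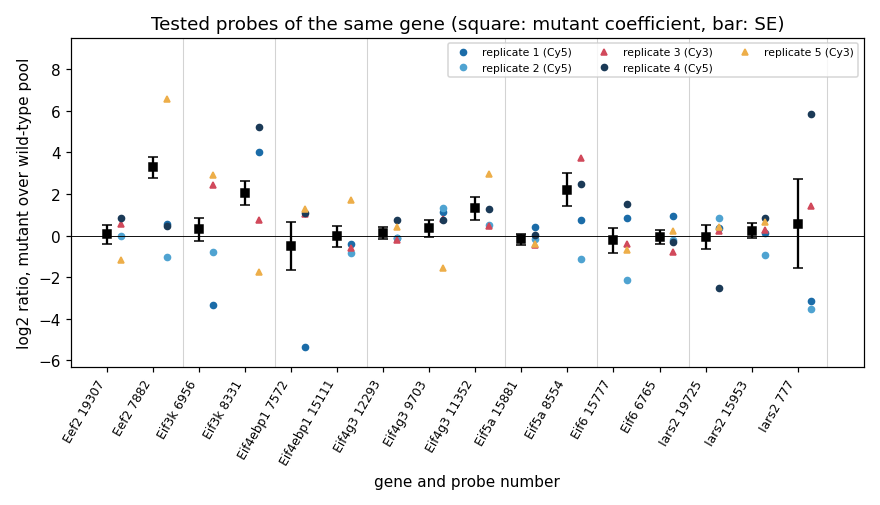
Tested probes of the 7 member genes with at least 2 (horizontal axis, gene and probe number); black squares are the mutant coefficients in log2 units with their SE, and coloured points to their right are the arrays (circles Cy5, triangles Cy3). The probes of Eef2 lie at 0.06 and 3.28, those of Eif5a at -0.17 and 2.20 and those of Eif3k at 0.30 and 2.05.

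Other genes of translation and its control were taken from 6 lists, with 33 genes tested on 41 probes. limma called 0 of these probes, and 23 lay above and 18 below 0. At an unadjusted p under 0.05 there were 2 of the 41, both below 0, beside 4.16% of all tested probes. Asns, asparagine synthetase and a target of ATF4, had 0.18, -1.37, -1.53, -0.91 and -3.15 on replicates 1 to 5 (coefficient -1.52 ± 0.41), and is the gene of the eIF2 alpha and amino acid stress list with the lowest p. That list had 6 probes above and 5 below 0 (median 0.29). Mknk1, a kinase that phosphorylates eIF4E, had -1.19, -0.20, -1.22 and -1.32 on replicates 1, 2, 3 and 5 (coefficient -0.98 ± 0.35), each value below 0. Of all probes with 4 values, 10.5% had 1 sign, and 3 of the 4 Mknk1 values equal ratios of small integers. With the swapped arrays turned, Asns stood at 0.82 and Mknk1 at 0.29, both above 0. Gspt1, the release factor eRF3a, had the lowest p of the release and recycling list at 0.86 ± 0.35, and its second tested probe stood at -0.52 ± 0.66. In the remaining lists this place was held by Larp1 (0.85 ± 0.44), Eefsec (0.46 ± 0.33) and the mitochondrial Mtfmt (-1.01 ± 0.62). The second tested probe of Eefsec, with values on 5 arrays, stood at -0.19 ± 0.43. All 5 tested probes of poly(A)-binding proteins and partners had coefficients above 0 (median 0.46), and 1 of 5 with the swapped arrays turned (median -0.06). The adjusted p was 0.999 for each gene named here.

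Of cell type markers, 7 of 7 tested erythroid probes lay above 0 (median 0.25), 5 of them for Hba-a1 alone, as did 2 of 2 lymphocyte probes (median 1.14) and 2 of 2 pancreas probes (median 0.05), while 0 of 3 endothelial and stellate probes did (median -0.63). With the swapped arrays turned, these counts were 5 of 7, 0 of 2, 1 of 2 and 1 of 3. Of Kupffer cell probes 1 of 3 and of hepatocyte probes 2 of 6 lay above 0. limma called 0 of these probes. At an unadjusted p under 0.05 stood Ctss, a lysosomal protease of macrophages, at 2.41 ± 0.48 on 4 arrays, and Tat, the liver's tyrosine aminotransferase, at -0.78 ± 0.27 on 5. The Ctss coefficient rests on replicate 3, its only array in Cy3, with 3.94 beside 0.23, 1.78 and 0.62 on replicates 1, 2 and 4. The tested probes of Lyz2, also on the Kupffer cell list, stood at -0.54 ± 0.39 and -0.235 ± 0.26. With the swapped arrays turned, Ctss stood at -1.53 and Tat at 0.38. The part of these cell types in the members' values was not tested.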

How the data were processed

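Total RNA was labelled with Cy3 or Cy5 and hybridised to 2-colour arrays, per the labels' protocols. The authors deposited 1 log2 ratio per probe and array. The log2 scale was read from the values, since the most frequent ones match small-integer ratios on that scale, offset by 1 constant per array. For background correction and normalization, the sources used here name no method. That swapped arrays were turned before deposit was read from the values: an extreme code (over 12 in size, set to missing, 5 member values) was positive on Cy5 and negative on Cy3 arrays. The direction mutant over pool is likely, not known. No column was unused (0).

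The probe annotation named 14030 probes with 1 symbol, 5 with several and 6320 with none used here; 97 of 97 member probes matched GRCm38.p6 gene identifiers and 0 symbols changed. limma 3.58.1 in R 4.3.3 (lmFit, eBayes) fitted intercept and dye to probes with at least 4 values in both orientations, with Benjamini-Hochberg adjustment and calls under 0.05; the fit was tested on simulated data. Missing values were left out, not imputed. Errors are SEs from the limma fit over arrays, with 1 animal per array.

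Members and lists were chosen with earlier results of these data known. Genes are named by a rule: lowest p per role and direction, 1 sign on 5 arrays, 6 smallest SDs, 3 lowest dye p per direction, other probes of these genes, 10 fixed genes and the lowest p of each other list; further members are named to account for each role list. Alternatives changed scaling, codes, dye term, minimum values, swap direction, probe averaging, variance model, whole-number ratios and each animal. Windows of some other promoters with these motifs are not reported here.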

Additional observations from a re-analysis of the deposited data

Results flagged for a closer look

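Of 33 named member probes, 3 had an array far from the others by Dixon's criterion, which chance alone meets in about 1 of 20 groups. Eif4ebp1 probe 7572 had -5.35 on replicate 1, against 1.03 to 1.26 on the other arrays. Eif4ebp1 probe 15111 had 1.70 on replicate 5, against -0.83 to -0.42. Iars2 probe 19725 had -2.50 on replicate 4, against 0.22 to 0.85.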

How the results depend on the processing

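limma called 0 member probes for the mutant coefficient under all 14 alternatives, and 0 for the dye coefficient under each that has a dye term; 1 of the 14, leaving out whole-number ratios, was chosen after seeing the data. The count at an unadjusted mutant p under 0.05 (3) was 0 with no dye term, 0 with values on all 5 arrays, 8 with swapped arrays turned, 1 without whole-number ratios and 2 to 4 when 1 animal was left out. The dye count (8) was 2 with values on all 5 arrays, 3 with swapped arrays turned, 3 without whole-number ratios and 4 to 11 when 1 animal was left out, the lowest without replicate 5 and the highest without replicate 1 or replicate 4. The median member coefficient ran from -0.03 to 0.06 over the animals left out. These counts rest on unlike numbers of tested member probes. There were 56 with no dye term or with swapped arrays turned, 33 with 5 values and 30 without whole-number ratios. Over all tested probes, the shares at a limma unadjusted mutant p under 0.05 were 3.32%, 7.38%, 3.80% and 3.86%. With 1 animal left out, a probe needed at least 3 values, and 54 to 67 member probes were tested.

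Some named coefficients changed sign, and the cause was not tested. With arrays centred on their medians, Eef2 probe 19307 was -0.018 and Eif3e -0.012. With no dye term, Nars was 0.0062 and Yars 0.0008. Averaging a gene's probes gave Eef1a2 -0.21, Eif5a 0.50 and Iars2 0.27. Without whole-number ratios, Eef1a2 was -0.028, Eif3e -0.025, Eif4e2 0.023 and Yars 0.11. With swapped arrays turned, the mutant coefficient takes the dye coefficient's value by construction: Eef1a2 -0.43, Eef2 probe 7882 -3.28, Eif2b2 0.25, Eif3k probe 6956 -2.37, Eif4a2 0.16, Eif4e -1.60, Eif4e2 0.33, Eif5 0.83, Eif5a 0.26 (probe 15881) and -1.51 (probe 8554), Iars2 -0.22 (probe 15953) and -0.87 (probe 777), Nars 0.11, Vars2 1.16 and Yars 0.044.

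Leaving out 1 animal at a time turned the sign of 18 of 33 named probes. Their ranges were -0.31 to 0.24 for Eef1a1, -0.056 to 0.22 for Eef1a2, -0.38 to 0.49 for Eef2 probe 19307, -0.65 to 1.43 for Eif2ak2, -0.081 to 0.13 for Eif3e, -0.34 to 0.95 for Eif3k probe 6956, -0.40 to 0.17 for Eif4a1, -0.22 to 0.10 for Eif4a2 and -0.28 to 0.023 for Eif4e2. They were -0.60 to 0.53 for Eif4ebp1 probe 15111, -2.10 to 1.11 for probe 7572, -0.37 to 0.054 for Eif5, -0.38 to 0.46 for Iars2 probe 19725, -0.95 to 1.39 for probe 777, -2.59 to 0.62 for Mars1, -0.088 to 0.058 for Nars, -0.046 to 0.28 for Qars and -0.12 to 0.11 for Yars. With 5 animals and 1 shared pool, array number limits the precision.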
